A study of Mus musculus with 12 samples.

Results

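The genes described here encode subunits of the mitochondrial oxidative phosphorylation complexes, together with their tissue-specific paralogues and the complex II assembly factors. They were chosen by name alone. Every name beginning with Ndufa, Ndufb, Ndufc, Ndufs, Ndufv, Uqcr, Atp5, Sdha to Sdhd, Cox4, Cox5, Cox6, Cox7 or Cox8 that appears in a young or an old chromatin interaction network of mouse hepatocytes was taken, without names ending in -ps and without the Ndufaf assembly factors. This gave 75 of the 16197 gene names in either network: 33 of complex I, 7 of complex II, 8 of complex III, 15 of complex IV and 12 of complex V. Of these, 65 encode subunits, and the other 10 are paralogues, complex II assembly factors and the supercomplex factor Cox7a2l. Ndufa4 and its paralogue Ndufa4l2 were placed with complex IV, where the Ndufa4 protein is now known to sit.

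Hi-ChIP for acetylated histone H3 lysine 27, a mark found at promoters and enhancers in use, was done on hepatocytes of male C57BL/6 mice aged 5 months (young) or 25 months (old). The labels name no drug treatment and no engineered allele. The young animals were bought from Charles River Laboratories and the old ones came from the National Institute on Aging stock, so age and source cannot be told apart. Each age had 6 libraries, from 2 biological replicates in 3 batches of technical repeats, and is represented by 1 deposited network with no replicate named in it. The comparison therefore asks how the 2 networks differ and has no replicate check and no p-value.

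Oxidative phosphorylation makes most of the ATP of a hepatocyte. Complexes I and II pass electrons from NADH and succinate to ubiquinone, complex III passes them on to cytochrome c, and complex IV hands them to oxygen. Complexes I, III and IV pump protons out of the matrix, and complex V, the ATP synthase, uses their return to make ATP. Apart from a small set made from mitochondrial DNA, the subunits are encoded by nuclear genes scattered over most chromosomes, and in liver this capacity serves costly work such as gluconeogenesis and urea synthesis.

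In these networks a node is a 5 kb bin and a clique is a set of linked nodes. Every node belongs to exactly 1 clique. The value of a gene is the number of nodes in the largest clique that lists it, and 0 where no clique does. Clique size thus describes how many acetylated bins are grouped with a gene's promoter, and is not a level of RNA or of acetylation. No member was listed in more than 1 clique at either age. The young network held 56928 nodes in 5401 cliques with a mean of 10.5 nodes, and the old network 40304 nodes in 5973 cliques with a mean of 6.75. The sequencing depth of either network is unknown. The labelled cell type was checked against markers. Of 9 hepatocyte genes, 7 were listed in the young and 6 in the old network, with summed sizes of 388 and 192 nodes, among them Alb at 60 and 41 nodes. Serpina1c and Tf were listed at neither age, and Hnf4a stood at 65 nodes in young and in no old clique. Of the 5 markers of each other cell type, none was listed for Kupffer cells or lymphocytes at either age. Sinusoidal endothelial cells had 2 listed markers in young and 1 in old (35 and 3 nodes in sum), and for stellate cells and cholangiocytes 1 each in young only (2 and 11 nodes). The part of these other cells in the results below was not tested.

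Most of the oxidative phosphorylation genes were listed in smaller cliques in the old network. The value was smaller in old for 66 of 75 members (88.0%, 95% Wilson interval 78.7 to 93.6), larger for 7 and equal for 2. Among all 16197 names 79.1% were smaller, 17.9% larger and 3.03% equal, so the direction was that of the whole network. Among the 9604 protein-coding names 78.5% were smaller. The median member went from 30 nodes in young to 5 in old, and the median name of the network from 22 to 5. As log2 of old over young, with 1 added to each size, the medians were -1.19 for the members and -1 for all names. The Wilson interval covers counting error only and treats members as independent, which members of the same clique are not.

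The split depends on the scale. When each size was first divided by the mean clique size of the same age, 51 members (68.0%) were smaller and 24 larger in old, against 59.9% smaller and 40.1% larger among all names. The median of all names was -0.25 on that log2 scale and that of the members -0.36. By percentile rank among all names of the same age, 34 members (45.3%) ranked lower in old and 41 ranked higher, against 40.0% lower among all names. The median shift in rank was 0.25 percentile points. Unlisted names share a rank, at percentile 14.5 in old and 5.14 in young. Any name with 2 young nodes and no old clique thus counts as ranked higher. Cox6c, Ndufa1 and Ndufs4 are such members, and their shift equals the median.

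Among the 55 members listed at both ages, 49 were smaller in old, 4 larger and 2 equal, against 82.5% smaller and 12.5% larger among all names listed at both. The median of these 55 was 38 nodes in young and 15 in old, beside 31 and 17 for all such names. A value at least 2-fold lower in old, in size plus 1, was found for 29 of the 55 (52.7%, against 34.9% of all names listed at both ages). A value at least 2-fold higher was found for none of the 55, against 3.52% of names. Over all 75 members the same threshold was passed downwards by 46 (61.3%, against 50.2% of all names) and upwards by 3 (4%, against 12.4%). With a 4-fold threshold the downward count was 22 (29.3%, against 31.9%). These counts include the 17 members listed in young only and the 3 listed in old only, for which no fold can be given. The share listed at both ages was 73.3%, against 60.7% of all names. The share listed in young only was 22.7%, against 29.0% of all names, and that in old only 4%, against 10.3%.

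**Figure D1:**
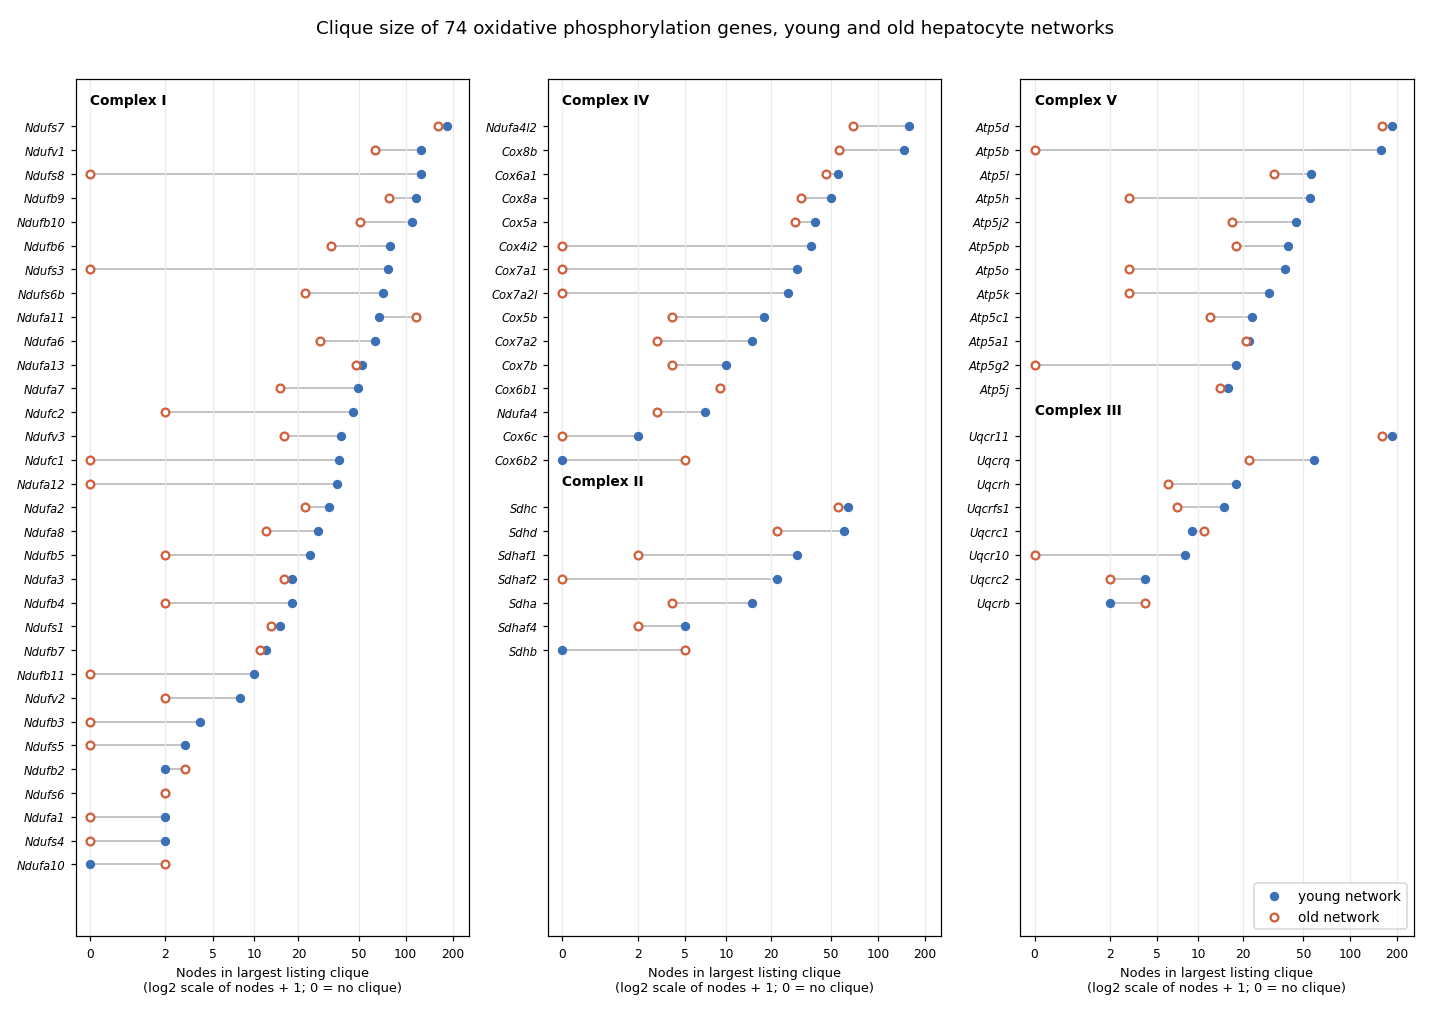
Nodes in the largest clique that lists each of 74 of the genes, by complex, on a log2 scale of nodes plus 1. Filled points are the young and open points the old network, 1 deposited network each, and 0 means listed in no clique. In 65 of these 74 genes the open point lies left of the filled one, and 17 open points lie at 0.

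Complex I oxidises NADH through a peripheral arm of flavin and iron-sulfur subunits. Counts for each complex stand beside 79.1% of all names smaller in old, 59.9% after division by the mean and 40.0% by rank. All 7 of the listed core subunits of complex I were in smaller cliques in old or in none. However, 3 were larger after division by the mean and 4 ranked higher. In the module that takes electrons from NADH, Ndufv1, which carries the flavin, stood at 126 nodes in young and 63 in old. Ndufv2, an iron-sulfur subunit of the same module, stood at 8 and 2 nodes. Ndufs1, the large iron-sulfur subunit, stood at 15 and 13 nodes and so was nearly the same at both ages.

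In the module that hands electrons to ubiquinone, Ndufs8, which holds a pair of iron-sulfur clusters, stood at 126 nodes in young and was unlisted in old. Ndufs3 stood at 77 nodes in young and was likewise unlisted in old. Ndufs7, which carries the last iron-sulfur cluster before ubiquinone, stood at 185 and 160 nodes. The old clique of 160 nodes is the largest of that network.

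The 25 accessory subunits of complex I, which surround and stabilise the core, were in cliques of up to 117 nodes in young and 116 in old. In old, 21 were smaller, 3 larger and 1 equal (16 smaller and 9 larger after division by the mean, and 13 lower and 12 higher in rank). The 12 higher in rank include Ndufa1 and Ndufs4, which no old clique lists. Ndufa11, a membrane-arm subunit, was the clearest exception: it went from 67 young to 116 old nodes, a log2 change of 0.78, and it ranked higher on each scale used. Ndufb2 went from 2 to 3 nodes. Ndufa10 was in no young clique and in an old one of 2 nodes, the smallest size a clique can have. Ndufs6 was in a clique of 2 nodes at both ages.

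No old clique listed Ndufc1 (37 young nodes), Ndufa12 (36), Ndufb11 (10), Ndufb3 (4), Ndufs5 (3), Ndufa1 (2) or Ndufs4 (2). Ndufa1 is needed for assembly of the membrane arm, and loss of Ndufs4 in mice is a model of Leigh syndrome. Since the last 5 of these were in young cliques of at most 10 nodes, their absence concerns few bins. Larger differences at both ages were seen in Ndufc2 (46 and 2 nodes), Ndufb5 (24 and 2) and Ndufb4 (18 and 2), the first with a log2 change of -3.97. Intermediate differences were seen in Ndufb10 (109 and 51 nodes), Ndufb6 (79 and 33), Ndufa6 (63 and 28), Ndufa7 (49 and 15), Ndufv3 (38 and 16) and Ndufa8 (27 and 12). Ndufb9 (117 and 78) and Ndufa2 (32 and 22) differed by less than 2-fold. Ndufa13, also known as Grim19 (52 and 48), Ndufa3 (18 and 16) and Ndufb7 (12 and 11) were close to equal. Ndufs6b, a paralogue of Ndufs6, stood at 71 and 22 nodes.

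Complex II is the succinate dehydrogenase, which also works in the tricarboxylic acid cycle. Its 4 subunits differed in direction. Sdha, the flavin subunit, stood at 15 nodes in young and 4 in old. Sdhb, the iron-sulfur subunit, was in no young clique and in an old clique of 5 nodes. The membrane anchors Sdhc and Sdhd stood at 64 and 55 and at 61 and 22 nodes. All 3 listed assembly factors had smaller values in old, also after division by the mean, and 2 of the 3 ranked lower: Sdhaf1, which serves iron-sulfur insertion into Sdhb, had 30 and 2 nodes, Sdhaf4 had 5 and 2, and Sdhaf2, which aids attachment of flavin to Sdha, had 22 and no old clique.

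In complex III the sizes were low, with a median of 12 nodes in young and 6.5 in old. Uqcrfs1, the Rieske iron-sulfur protein, stood at 15 and 7 nodes. The core proteins went opposite ways, Uqcrc1 with 9 and 11 nodes and Uqcrc2 with 4 and 2. Among the small subunits, Uqcr11 was in the clique of 185 and 160 nodes, Uqcrq had 59 and 22, Uqcrh 18 and 6, Uqcr10 8 and no old clique, and Uqcrb 2 and 4. When the largest clique with a node in or within 2500 bp of the gene was used in place of the deposited listing, Uqcrb stood at 19 and 4 and Uqcrc2 at 4 and 8, so the direction of both turned with that choice.

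Complex IV, the cytochrome c oxidase, has a core encoded by mitochondrial DNA. Its members here are accessory subunits, their paralogues and the supercomplex factor Cox7a2l. Of the 9 subunits, 8 had smaller values in old and Cox6b1 had 9 nodes at both ages. However, 3 were larger after division by the mean and all 9 ranked higher in old. For Cox6c, unlisted in old, this is only the rank that unlisted names share. The equal size of Cox6b1 hides a different set of bins: its 2 cliques shared only 3 nodes, and by gene span Cox6b1 stood at 30 and 9. Cox6a1 (55 and 46 nodes), Cox8a (50 and 32) and Cox5a (39 and 29) had the largest old cliques of these subunits. Cox5b had 18 and 4 nodes, Cox7a2 15 and 3, Cox7b 10 and 4, Ndufa4 7 and 3, and Cox6c 2 and no old clique.

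Several complex IV subunits exist as paralogues used in different tissues, and several such pairs were listed. Cox8b, the form of heart and muscle, was in cliques of 148 and 56 nodes, larger at each age than those of the widely expressed Cox8a. Cox7a1, the muscle form, stood at 30 nodes in young and in no old clique, and the liver form Cox7a2 at 15 and 3. By gene span Cox7a1 stood at 30 and 4. Cox4i2, known from lung, stood at 37 and in no old clique, but at 37 and 31 by gene span, and 28 of its 37 young nodes lay in that old clique. Its widely expressed counterpart Cox4i1 was listed at neither age. Cox6b2, the testis form, was in no young clique and in an old one of 5 nodes. By gene span, however, it touched a young clique of 41 nodes and had the opposite direction. Ndufa4l2, a paralogue induced in hypoxia, stood at 159 and 69, and Cox7a2l, which helps join complexes III and IV, at 26 and in no old clique. A place in a large clique does not show expression, since clique size counts bins and is not a level of RNA.

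Complex V had smaller values in old for all 12 members, for 9 of them after division by the mean, and 7 ranked lower. Among all names these shares were 79.1%, 59.9% and 40.0%. In the catalytic head, Atp5b, the catalytic beta subunit, stood at 159 nodes in young and was unlisted in old, and Atp5a1, the alpha subunit, stood at 22 and 21 nodes. By gene span Atp5b stood at 159 and 11. In the central stalk, which turns inside the head, Atp5d stood at 185 and 160 nodes and Atp5c1 at 23 and 12. Atp5g2, the only gene of the proton-carrying c-ring listed at either age, stood at 18 nodes in young and in no old clique.

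The 4 members of the peripheral stalk, which holds the head still, split by size. Atp5h had 55 and 3 nodes (log2 change -3.81), Atp5o 38 and 3, Atp5pb 40 and 18, and Atp5j 16 and 14. By gene span Atp5h stood at 55 and 16. Of the subunits of the membrane part, Atp5k had 30 and 3 nodes, Atp5j2 45 and 17, and Atp5l 56 and 32. Division by the mean left 21 of 33 smaller in complex I, 5 of 7 in complex II, 5 of 8 in complex III and 11 of 15 in complex IV. Among all names the share was 59.9%, near the 63.6% of complex I and the 62.5% of complex III.

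**Figure D2:**
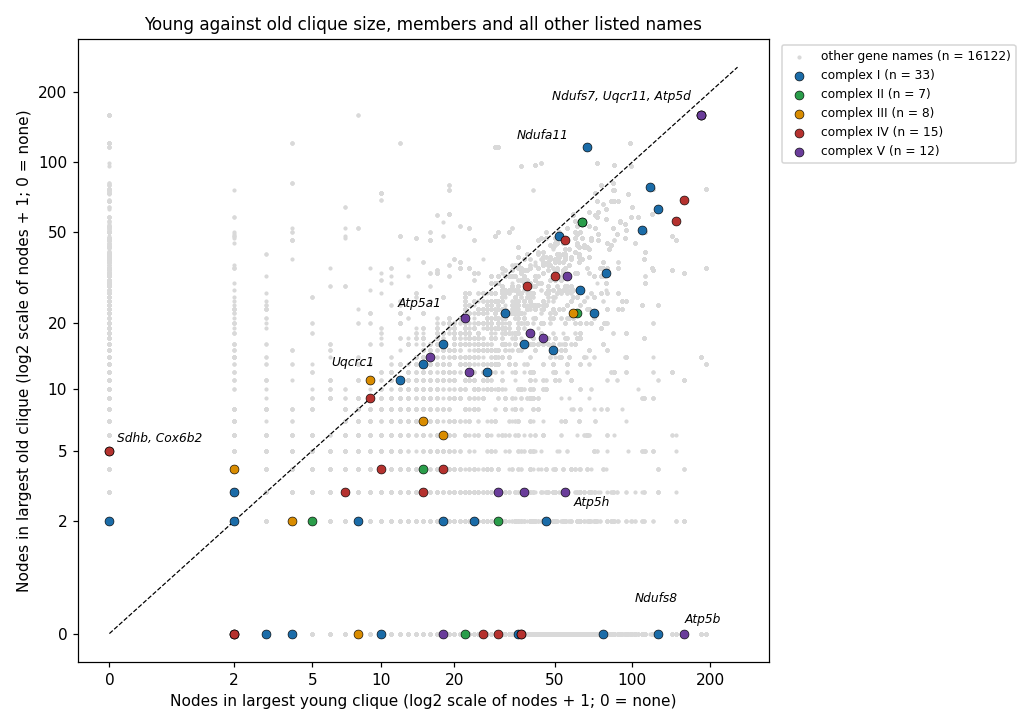
Nodes in the old clique against nodes in the young clique for the 75 genes, coloured by complex, and for the other 16122 names in grey, both axes on a log2 scale of nodes plus 1, with the line of equality dashed. Most coloured points lie below the line, as do most grey ones, and Ndufa11 lies above it at 67 and 116 nodes. Genes with equal values overlap, such as Sdhb with Cox6b2 and Ndufs7 with Uqcr11 and Atp5d.

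Although the genes lie on many chromosomes, some shared a clique. In young, Ndufs7, Uqcr11 and Atp5d, of 3 different complexes, shared the clique of 185 nodes on chromosome 10. Atp5b and Ndufa4l2 shared that of 159 nodes on the same chromosome, Ndufs8 and Ndufv1 that of 126 nodes on chromosome 19, and Cox7a1 and Sdhaf1 that of 30 nodes on chromosome 7. Of these 4 groupings, that of Ndufs7, Uqcr11 and Atp5d was also found in old, in the clique of 160 nodes, and the other groupings were not. Members of 1 clique have the same value and are not independent measurements, and 66 young and 55 old cliques carried all the listings. With 1 value for each pair of young and old cliques, 63 of 72 values (87.5%) were smaller in old.

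Members were found in cliques of all sizes. In young, 24 of the 72 listed members (33.3%) were in cliques of at least 50 nodes, against 25.5% of all listed names. In old the numbers were 11 of 58 members (19.0%) and 10.1% of names. The median number of names in a member's clique was 11 in young and 6 in old, and 4 members at each age were the only name of their clique.

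Companions, the other names in a clique, were also compared. Atp5a1 was listed with 5 other names in young, among them Epg5 and Haus1, and all 5 were listed with it in old. Sdhc was listed at both ages with Apoa2, a lipoprotein of high-density particles, and Cox5a with Cyp1a1 and Cyp1a2, inducible cytochromes P450. Cox8a was listed at both ages with Esrra, a nuclear receptor known to act on oxidative phosphorylation genes, at 50 and 32 nodes. Over the 55 members listed at both ages, the median share of the young companions that were listed with it in old was 50.0%, over the 54 with any, and 60.0% over all such names.

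The bins themselves were compared by position. For the 55 members, the Jaccard index, the number of nodes shared by the young and the old clique divided by the nodes in either, had a median of 0.37. Over all names listed at both ages the median was 0.43. The index ranged from 0.0175 for Atp5h to 0.79 for Atp5a1, and was at least 0.5 for 19 members (34.5%, against 40.9% of names). The young clique of Atp5h overlapped most, with an index of 0.42, with an old clique that does not list Atp5h. For the 72 members listed in young, the median share of the young clique's nodes that were nodes anywhere in the old network was 63.7%, against 62.9% over all names listed in young. For 47 of the 72 (65.3%, against 58.0% of names), these nodes were spread over at least 2 old cliques.

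The loss of a listing and the loss of the bins were different things. Of the 126 young nodes shared by Ndufs8 and Ndufv1, 84 were nodes in old, 56 of them in the clique that lists Ndufv1. That old clique of 63 nodes also has a node in or within 2500 bp of Ndufs8, though it does not list it. Of the 159 nodes of the Atp5b clique, 102 were old nodes, 62 of them in the clique of Ndufa4l2. All 29 of the 36 nodes of the Ndufa12 clique that were left in old lay together in 1 clique, which does not list Ndufa12. Of the 55 nodes of the Atp5h clique 42 were old nodes, and only 1 was in the old clique of 3 nodes that lists Atp5h. In contrast, no node of the young cliques of Ndufa1, Ndufb3, Ndufs4 and Cox6c was a node in old. These were cliques of 2, 4, 2 and 2 nodes.

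The larger old clique of Ndufa11 was made mostly of bins that were already nodes in young. Of its 116 old nodes, 91 were nodes in young. They included 50 from the young clique that lists Ndufa11 and 23 from a neighbouring young clique of 30 nodes.

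**Figure D3:**
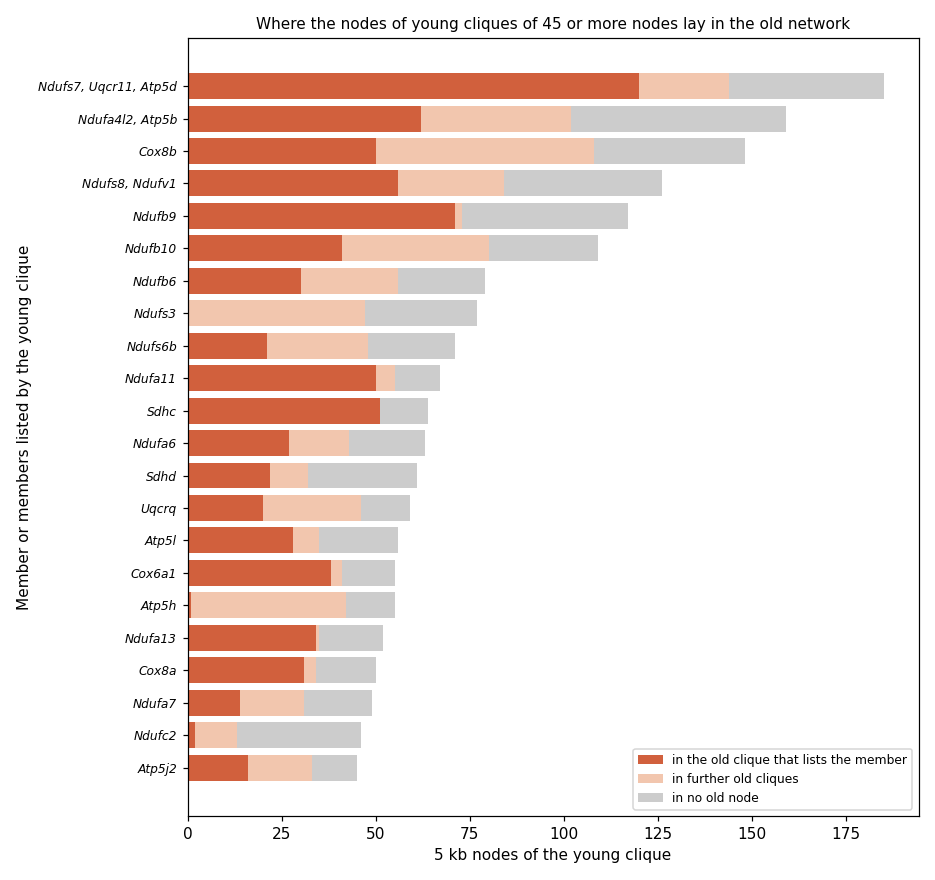
Young cliques of at least 45 nodes that list a member, each bar divided into nodes that lay in an old clique listing at least 1 of the same members, in further old cliques, or in no old node, in numbers of 5 kb nodes. Of the 185 nodes of the clique of Ndufs7, Uqcr11 and Atp5d, 144 were old nodes and 120 lay in the old clique that lists them, whereas Ndufs3 has no such clique.

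The start of transcription was examined next, since the deposited listing depends on promoters. RefSeq starts were available for 62 of the 75 members, on GRCm38.p6, the assembly also called mm10. In young, the bin holding the start was a node for all 59 members that were listed and had a start, and it belonged to the listing clique in each. In old it was a node for 42 of 47 such members. Among all names listed in young or in old the shares were 94.4% and 92.4%. Of the 59 members whose start lay in a young node, the start lay in an old node for 40 (67.8%), against 71.2% of all names.

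Of the 17 members listed in young only, 15 had a known start, and in 14 of these it lay outside every old node. The exception was Ndufs3, whose start lay in an old clique of 16 nodes. That clique lists Kbtbd4, a gene on the opposite strand whose start is 19 bp away. Among all names listed in young only, 5.69% had their start in an old node. In several of the 14 the nearest old node was close: 830 bp from the start of Cox7a1, 1694 bp for Atp5b, 1815 bp for Ndufs5 and 2774 bp for Ndufs8. In these 4 the start lay less than the width of 1 bin from an old node. The distance was 6046 bp for Ndufc1, 8094 bp for Ndufs4, 14344 bp for Uqcr10, 17382 bp for Ndufb11, 24792 bp for Sdhaf2 and 34035 bp for Ndufa12. It was 46.2 kb for Ndufa1, 55.7 kb for Cox7a2l, 139 kb for Ndufb3 and 161 kb for Atp5g2. With a node in the gene or within 2500 bp of it as the measure, 10 of the 17 (58.8%) had none in old and 7 had at least 1. Among all names listed in young only with a known position, 56.4% had none.

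Of the 3 members listed in old only, Sdhb and Ndufa10 were far from any young node, at 51.3 kb and 109 kb from the start. Cox6b2 was 3094 bp from one.

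**Figure D4:**
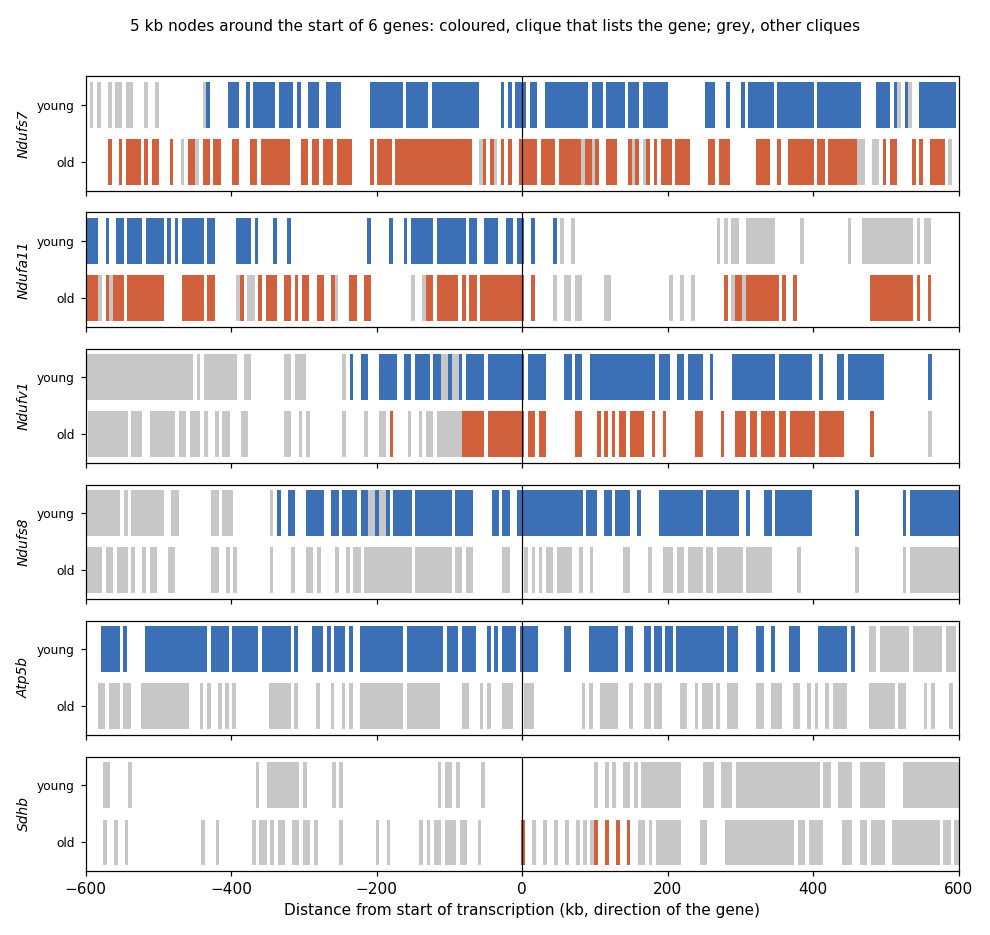
Nodes of the young and old networks within 600 kb of the start of transcription of 6 genes, in kb in the direction of the gene, with the clique that lists the gene coloured and nodes of other cliques in grey. Around Ndufs8 and Atp5b the old network still has many nodes, but none at the start, where the line stands. Around Sdhb only the old network has a node at the start.

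The promoters of the genes on which these contrasts turn follow, chosen after their values were seen. Each runs 5′ to 3′ in the direction of the gene, from 200 bases before the start to 30 from it on, from the RefSeq table for GRCm38.p6. Capitals mark exact matches, on either strand, to the motifs CCAAT (bound by NF-Y), CCGGAAG (bound by ETS factors, GABP among them) and GCGCATGCG (bound by NRF1, nuclear respiratory factor). The NRF1 motif is almost its own reverse complement, so its matches can overlap on both strands. Ndufs8 and Ndufv1 shared a young clique and Atp5b had the largest young clique of those not listed in old.
Ndufs8 (chr19:3912745-3912974, minus strand): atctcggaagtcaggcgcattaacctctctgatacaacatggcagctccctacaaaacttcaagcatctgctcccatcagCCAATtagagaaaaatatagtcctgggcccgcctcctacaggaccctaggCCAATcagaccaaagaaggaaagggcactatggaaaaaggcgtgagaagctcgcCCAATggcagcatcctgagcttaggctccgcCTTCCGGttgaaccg
Ndufv1 (chr19:4012726-4012955, minus strand): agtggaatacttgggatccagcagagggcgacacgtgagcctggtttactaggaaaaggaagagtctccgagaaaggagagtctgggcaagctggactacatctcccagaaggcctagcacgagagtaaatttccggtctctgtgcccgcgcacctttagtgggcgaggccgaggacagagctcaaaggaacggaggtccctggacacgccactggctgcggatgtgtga
Atp5b (chr10:128083107-128083336, plus strand): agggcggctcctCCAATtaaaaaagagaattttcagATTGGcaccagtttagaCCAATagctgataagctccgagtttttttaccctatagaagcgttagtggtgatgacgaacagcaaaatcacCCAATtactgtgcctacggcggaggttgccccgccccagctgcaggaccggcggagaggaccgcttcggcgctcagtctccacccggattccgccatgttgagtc
Ndufs8, whose start was not in an old node, has 3 CCAAT matches before the start and an ETS match after it. Ndufv1, still listed in old in a clique of 63 nodes, has no match in this stretch. Atp5b has 4 CCAAT matches and no match to the other motifs. A match is a description of the letters only.

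The next 4 are Ndufa11, larger in old, Uqcr11, in the largest old clique, Atp5g2, listed in young only, and Sdhb, listed in old only.
Ndufa11 (chr17:56717562-56717791, plus strand): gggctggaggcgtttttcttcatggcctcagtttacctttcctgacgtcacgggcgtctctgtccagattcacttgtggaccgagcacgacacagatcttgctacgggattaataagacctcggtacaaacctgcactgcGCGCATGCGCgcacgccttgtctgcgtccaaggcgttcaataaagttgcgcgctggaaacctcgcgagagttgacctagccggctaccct
Uqcr11 (chr10:80406792-80407021, minus strand): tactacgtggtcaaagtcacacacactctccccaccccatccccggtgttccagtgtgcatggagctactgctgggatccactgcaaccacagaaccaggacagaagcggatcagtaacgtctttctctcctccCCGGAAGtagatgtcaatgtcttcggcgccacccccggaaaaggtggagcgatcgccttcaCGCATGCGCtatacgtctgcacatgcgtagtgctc
Atp5g2 (chr15:102671018-102671247, minus strand): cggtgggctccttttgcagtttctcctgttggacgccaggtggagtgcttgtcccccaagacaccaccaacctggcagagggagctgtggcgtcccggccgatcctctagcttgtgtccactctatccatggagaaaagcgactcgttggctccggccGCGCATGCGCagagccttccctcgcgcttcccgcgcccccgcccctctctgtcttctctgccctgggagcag
Sdhb (chr4:140961071-140961300, plus strand): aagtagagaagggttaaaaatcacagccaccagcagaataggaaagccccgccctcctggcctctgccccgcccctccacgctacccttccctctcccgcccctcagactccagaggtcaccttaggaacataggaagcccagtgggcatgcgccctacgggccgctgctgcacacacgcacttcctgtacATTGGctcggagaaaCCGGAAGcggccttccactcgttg
The same NRF1 letters, matching on both strands, are present in Ndufa11 and in Atp5g2, which went opposite ways. Uqcr11 has an NRF1 and an ETS match, and Sdhb an ETS match and a CCAAT match on the opposite strand.

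Over the 62 members with a promoter, searched from 250 bases before to 50 after the start on both strands, the NRF1 motif was found in 8 (12.9%), against 1.95% of all 27025 genes in the table. The ETS motif was found in 17 (27.4%, against 9.93%). AAGATGGCG, bound by YY1, was found in 6 (9.68%, against 1.64%), and CCAAT in 26 (41.9%, against 41.1%). TCAAGGTCA, bound by oestrogen-related receptors, was found in Sdhd alone (1.61%, against 0.47%). At least 1 of the NRF1, ETS and YY1 motifs was present in 26 members (41.9%), against 12.7% of all genes and 22.9% of the names listed in either network. Counted per promoter of the same length, the 32851 promoters of the table held the NRF1 motif in 1.75%, the ETS motif in 8.86%, the YY1 motif in 1.40%, the receptor motif in 0.42% and CCAAT in 37.4%.

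The start was in an old node for 7 of the 8 members with an NRF1 match and a start in a young node, the exception being Atp5g2, and for 33 of 51 without a match. For the ETS motif the counts were 13 of 16 and 27 of 43, for the YY1 motif 4 of 6 and 36 of 53, and for CCAAT 15 of 24 and 25 of 35. These counts are small and were not tested.

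Many of these promoters face another gene. A start on the opposite strand within 1 kb was found for 21 of 62 members (33.9%), against 15.8% of all genes and 25.1% of listed names. Atp5j faces Gabpa, which encodes the DNA-binding subunit of GABP, with starts 148 bp apart, and both stood at 16 and 14 nodes. Ndufa7 faces Rps28 at 10 bp, a ribosomal protein gene, and Sdhd faces Timm8b at 52 bp, whose product serves mitochondrial protein import.

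Other genes of the pathway were taken from lists. Of 51 assembly factors of the 5 complexes, 38 were listed, and 28 were smaller, 7 larger and 3 equal in old (24 smaller and 14 larger after division by the mean, and 12 lower and 26 higher in rank). The 18 listed factors of complex IV divided into 13 smaller, 4 larger and 1 equal, and after division by the mean into 9 and 9. Bcs1l, which inserts the Rieske protein into complex III, stood at 85 nodes in young and in no old clique, and the complex I factor Dmac2 at 48 and in none. By gene span Bcs1l again had none in old, whereas Dmac2 stood at 48 and 14. Surf1, needed for complex IV assembly, stood at 14 and 47 nodes, and Uqcc3, a complex III factor, in no young clique and at 44 in old. Cox16 stood at 2 and 49 by the deposited listing but at 74 and 49 by gene span, so its direction turned with that choice.

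The genes of electron carriers and further entry points to ubiquinone were smaller in old in all 17 of the 19 that were listed (15 after division by the mean, and 8 by rank). Cyc1, the cytochrome c1 subunit of complex III, stood at 99 nodes in young and in no old clique, but at 99 and 58 by gene span. Coq5 and Coq9, of ubiquinone synthesis, stood at 55 and 2 and at 20 and none. By gene span Coq5 stood at 55 and 46, under 2-fold, and Coq9 at 20 and 2. Of 18 genes of the tricarboxylic acid cycle 13 were listed and all 13 were smaller (8 after division by the mean, and 4 by rank), including Idh2 (95 and 12 nodes) and Cs, the citrate synthase (159 and 33).

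Among 20 regulators of mitochondrial biogenesis 18 were listed, 15 smaller and 3 larger in old (10 and 8 after division by the mean, and 8 and 10 by rank). Polg2, a subunit of the mitochondrial DNA polymerase, stood at 88 nodes in young and in no old clique. Tfam, which packages mitochondrial DNA, and Pprc1, a coactivator, both stood at 28 and in none. By gene span Tfam again had none in old, whereas Pprc1 stood at 28 and 20, under 2-fold. The 3 larger ones were Polrmt, the mitochondrial RNA polymerase, with 8 and 160 nodes, Polg with 5 and 20, and Gabpb1, the partner of Gabpa, with 17 and 20. In old, Polrmt was listed in the clique of Ndufs7, Uqcr11 and Atp5d. Each of these lists is to be read beside the 79.1% of all names that were smaller in old. After division by the mean that share was 59.9%, and by rank 40.0%. Some genes of these lists share a clique with a member and so repeat its value. Examples are Cs with Atp5b in young, and Dlat with Sdhd and Sirt3 with Cox8b at both ages.

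By the same name rule, 17 further genes of the RefSeq table were listed in neither network under any name, among them Cox4i1, Cox7c, Ndufa9, Ndufab1, Ndufb8, Atp5e, Atp5g1 and Atp5g3. By gene span some still touched a clique, such as Cox4i1 (3 nodes and none) and Atp5e (5 and 2). Cox7c, Ndufa9 and Ndufb8 touched none at either age. Another 6 listed names ending in -ps were left out by the rule, among them Ndufb1-ps, the name under which Ndufb1 appears. With them added, 69 of 81 names (85.2%) were smaller in old.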

How the data were processed

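H3K27ac Hi-ChIP was measured in 12 libraries, 6 per age. The authors deposited 1 network per age as a table of nodes and a table of cliques. Per the file headers, the clique table gives the number of nodes (a whole count of nodes per clique, not of reads), the gene names and the node names. Bowtie2 and HiC-Pro, with mm10 and GRCm38, are named in the submitters' processing notes. For the loop caller, thresholds, clique method, promoter window and pooling of libraries, details were not given in the sources used here, and the depth is unknown. Fewer contacts could give fewer nodes and smaller cliques.

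For each name the largest clique size was taken at each age (0 if unlisted), and compared as log2((old + 1)/(young + 1)), with 2-fold as the threshold. Nodes were matched as identical 5 kb bins. All 75 members matched the RefSeq GRCm38.p6 gene table, and 12957 of the 16197 names did. Without replicates no test was made. The members, lists and rules were chosen with earlier results of these data known. All members enter the counts, and the values of 1 are not reported here. Given in more detail are core subunits, in each complex the up to 3 largest differences each way, members listed in old only, paralogues and members sharing a clique; of other lists, the up to 3 largest each way; of clique companions, up to 4 in alphabetical order. Kbtbd4, Rps28, Timm8b and other genes outside this rule were named after their values were seen. The log2 calculation was run on simulated data, made by scaling young sizes by known factors, which checks the arithmetic only. Alternatives were another added constant, scalings, gene span, summed cliques, smaller sets and other windows. Python 3.11.15, pandas 2.3.3, numpy 2.4.6, scipy 1.17.1 and matplotlib 3.10.9 were used.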

Additional observations from a re-analysis of the deposited data

How the results depend on the processing

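No paired analysis was possible because each age is 1 deposited network in which no replicate is named, and for the same reason no replicate could be left out. The median log2 value of -1.19 became -0.36 after division by the mean clique size, with 1 added after the division. How much of that change came from the added 1 was not tested. As percentile rank the median had the opposite sign, at 0.247 points higher in old. That is the shift of Cox6c, Ndufa1 and Ndufs4, which no old clique lists, since unlisted names share a higher rank in old than in young. By rank, 45.3% of members were lower in old in place of 88.0%. Under the other alternatives to the share, among them a constant of 5, 1 value per pair of cliques, gene span and subunits only, it lay between 85.2% and 90.7%, except for 68.0% after division by the mean. By gene span 10 members were found in young only, in place of 17. With a 4-fold threshold 22 members were lower in old, in place of 46. Another 3 alternatives were chosen after seeing the data: adding the -ps names (85.2% smaller), leaving out the clique of Ndufs7 (87.5%) and taking the clique at the start of transcription (87.1%).

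Of the 49 members with at least a 2-fold difference, 13 that were smaller in old ranked higher there, in percentile points: Ndufa4 by 15.4, Cox7b by 14.7, Uqcrfs1 by 12.8, Sdhaf4 by 10.2, Sdha by 7.07, Uqcrh by 6.92, Ndufv2 by 5.77, Ndufa8 by 5.27, Cox7a2 by 3.11, Cox5b by 2.61, and Cox6c, Ndufa1 and Ndufs4 by 0.247. No old clique lists Cox6c, Ndufa1 or Ndufs4, so their higher rank is only that shared by unlisted names. By gene span Cox6b2 had the opposite sign, with a log2 value of -2.81, and Cox4i2 (-0.25), Ndufa4 (-0.68), Ndufs5 (-0.41) and Ndufs8 (-0.99) came under 2-fold. After division by the mean, with 1 added to each divided size, 32 of the 49 were under 2-fold in their original direction. Without that 1, some of the 32 still differed by more than 2-fold. For example, Sdha stood at 1.42 and 0.59 times the mean, and Cox7a2 at 1.42 and 0.44. The cause was not tested. Reads and valid contacts are unknown, so how much of the smaller old network depth sets was not tested.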
